A study of Mus musculus with 33 samples.

Results

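Mouse retinal progenitor cells held under rod-inducing conditions were compared between day 21 and day 35, the last interval of the rod culture. The 3 libraries labelled rod induction at day 35 were set against the 3 labelled rod induction at day 21, which makes 6 of the 33 libraries of the series, chosen by those labels alone. All 6 came from retinal progenitor cells of C57BL/6J mouse retina taken at embryonic day 14, and all 6 had received taurine and retinoic acid. The day of culture is therefore the only labelled difference between the groups. The series also holds untreated cells at day 0, rod cultures at days 0, 5 and 12, and cone cultures induced with COCO protein at the same days. The growth protocol is not among the labels, so how long each factor stayed in the medium is not known here, and the labels do not say whether replicates were separate cultures or animals. The p-values below measure only the spread between libraries of the same group, estimated over all 33 libraries, and that spread may be technical.

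Retinal progenitors are dividing neuroepithelial cells that leave the cell cycle to become neurons, and that give rise last to rods, bipolar cells and Muller glia. Muller glia span the retina, clear glutamate and potassium, and after injury or in culture can turn on a reactive programme that includes Gfap, Lcn2 and complement genes. Taurine and retinoic acid are both used to favour rods: retinoic acid acts through nuclear receptors that turn on its own degrading enzymes, and taurine acts on amino acid receptors of newborn retinal cells.

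The 6 libraries held 12809650 to 19166442 counts assigned to genes, and 3 counts in a library corresponded to 0.194 to 0.255 CPM, the count scaled to library size after TMM normalisation. Genes that hold or overlap ribosomal RNA sequence took 27.2 to 31.6% of counts at day 21 and 30.9 to 35.3% at day 35. Mitochondrial genes took 14.1 to 15.4% at day 21, and 14.8, 15.2 and 20.5% in day 35 replicates 1, 2 and 3. No 2 replicates agreed within sampling noise (chi-square per degree of freedom 12.8 to 36.1 within groups).

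The cultures labelled rod induction held little rod RNA at either day. Nrl, the transcription factor that sets rod fate, had no count in 4 of the 6 libraries and at most 0.391 CPM, and Nr2e3, its partner, was at or under 0.0771 CPM in all 6. At day 12 the 3 rod libraries had ranged from 0.428 to 105 CPM for Nrl. Crx, the factor shared by rods and cones, was at 6.17, 8.41 and 6.32 CPM at day 21 and 5.69, 1.94 and 3.68 CPM at day 35. Its log2 fold change was -0.89 ± 0.75 (adjusted p = 0.629), where the error, here and below, is the SE from the model. None of 18 rod genes was called by edgeR, DESeq2 or voom, with 0 at an unadjusted p under 0.05 and a list median of -1.11, which was 0.00 without day 21 replicate 1. The summed level of the list was 309 to 365 CPM at day 21 and 345 to 366 CPM at day 35. Most of it was Gnb1, a G protein subunit of many cell types, and without Gnb1 the sums were 37 to 45.2 and 49.4 to 72.3 CPM. The cone genes Opn1sw (at most 0.154 CPM) and Arr3 (no counts in any of the 6) were also at or under the floor. In bulk RNA, fewer cells of a type and less of its RNA per cell cannot be told apart. Progenitor and glial genes were present: Pax6, a transcription factor of progenitors, ranged from 471 to 682 CPM over the 6 libraries with overlapping groups (adjusted p = 0.895), and the Muller glia genes Rlbp1, a retinaldehyde carrier, and Glul, glutamine synthetase, ranged from 61.9 to 191 and from 92.1 to 189 CPM.

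Between day 21 and day 35, 280 of 18150 tested genes changed, which is 1.54%. Of these, 121 rose (0.667% of tested genes) and 159 fell (0.876%), 54 and 93 of them at least 2-fold. The fallen genes included genes of cell division and a few neuronal channel genes, and the risen genes included complement, oxidative stress and lysosomal genes. The test, meant by called, rose and fell wherever no other tool is named, was the edgeR quasi-likelihood test at a Benjamini-Hochberg adjusted p under 0.05, with the spread estimated over all 11 groups of 3 libraries. Over all tested genes the median log2 fold change was 0, with quartiles at -0.221 and 0.232. Of all tested genes, 8.98% were higher in every day 35 library, 9.38% were lower in every one, and 15.4% had an unadjusted p under 0.05. In only 16 of the 280 called genes did the libraries of the 2 days overlap. Lack of overlap in a called gene, here and below, therefore adds little to its call. The count depends on the libraries in the fit: filtered and fitted on the 6 libraries alone, which changes both the estimate of the spread and the genes tested (15435), the same test called 3 genes, of which 1, Kif15, was among the 280. It also moved with single libraries, from 59 without day 21 replicate 2 and 93 without day 35 replicate 1 to 314 without day 35 replicate 2. It was 106 without day 35 replicate 3, 120 without day 21 replicate 3 and 167 without day 21 replicate 1.

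A core of 34 genes, 13 risen and 21 fallen, was called with all libraries and again without each of the 6 in turn. In all 34, the day 35 libraries did not overlap the day 21 libraries. These genes were selected by calls on the same 6 libraries, which favours such separation, and only 16 of all called genes overlapped. The share of 18.4% without overlap among all tested genes is therefore no independent comparison for the 34. The fallen genes of this core, chosen here after their values were seen, include Kif15 (a mitotic spindle kinesin), Cit (citron kinase, which acts in cytokinesis), Hmgb3 (a chromatin protein of immature cells), Nasp (a histone chaperone), Sass6 (a centriole assembly protein), Polq (a DNA polymerase of end joining), Myb (a transcription factor of cycling progenitors), Stmn1 (a microtubule regulator), Rps6ka6 (a kinase of the RSK family), Sox4 and Arntl. The risen ones include C3, Lcn2, Chil1, Fmod, Fth1, Gaa, Ifngr1 (an interferon gamma receptor chain), Slc48a1 (a haem transporter of endosomes and lysosomes), Ajap1, Mbd1, Sntb2, Tmem176a and Tmem176b.

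**Figure D1:**
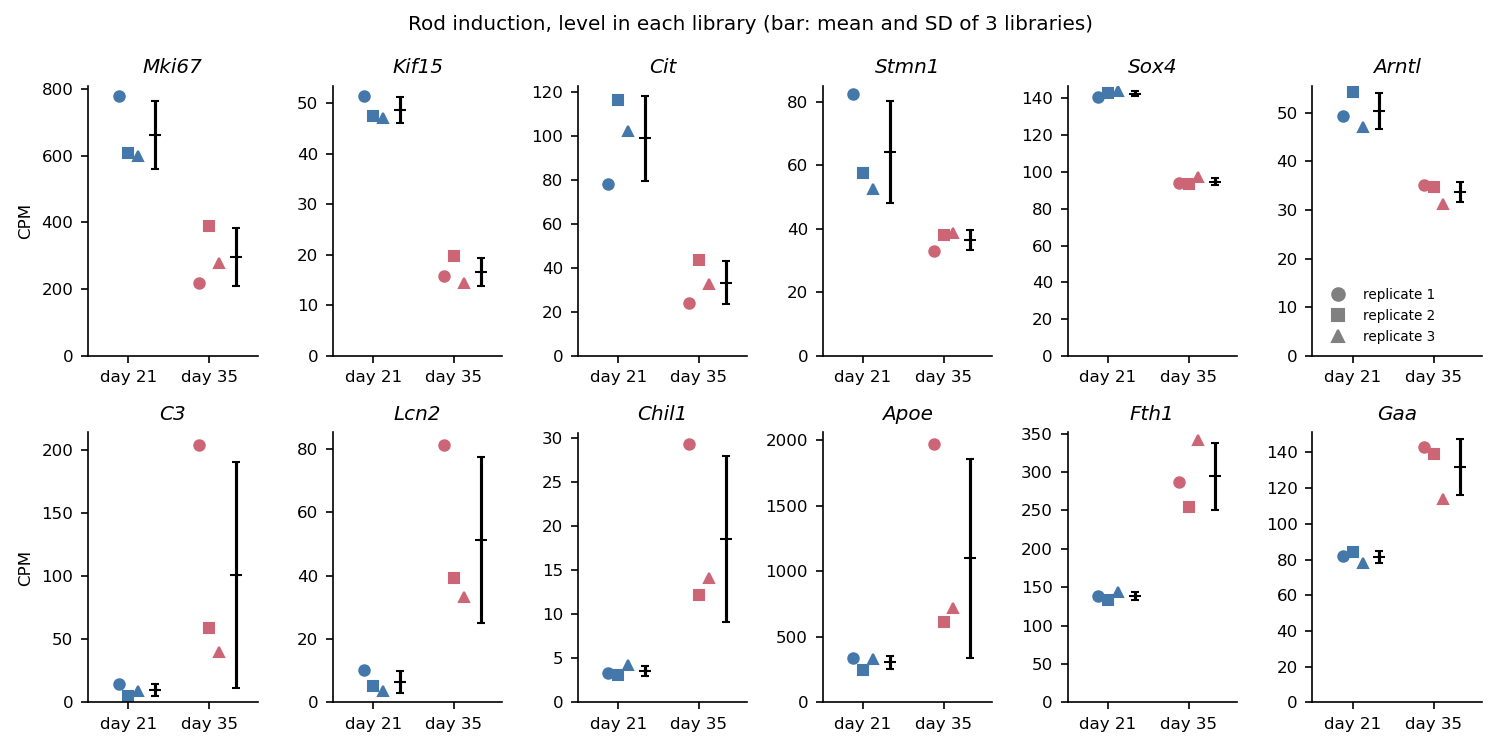
Levels of 12 genes in each library, in CPM on axes from 0, with day 21 in blue and day 35 in red, symbols for replicates, and a bar for the mean and SD of 3 libraries. In all 12 panels the groups do not overlap, which the choice of called genes favours, since only 16 of the 280 called genes overlap. Sox4 shows the narrowest groups (141 to 144 and 93.3 to 97.1 CPM), whereas for C3, Lcn2, Chil1 and Apoe day 35 replicate 1 lies far above the other 2 day 35 libraries.

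Genes of cell division fell. Mki67, the proliferation antigen Ki-67, stood at 780.4, 607 and 599.6 CPM at day 21 and at 218, 389.7 and 279 CPM at day 35. All 3 day 35 libraries were below all 3 day 21 libraries, and the log2 fold change was -1.16 ± 0.30 (adjusted p = 0.0432). Kif15 was at 51.5, 47.4 and 47 CPM and then at 15.8, 19.7 and 14.4 CPM (log2 fold change -1.55 ± 0.28, adjusted p = 0.00592). Its groups were tight and far apart. Cit was at 78.2, 116 and 102 CPM and then at 24, 43.5 and 32.5 CPM (log2 fold change -1.56 ± 0.25, adjusted p = 0.00207). Of a list of 30 cell cycle genes, 5 fell and none rose: Kif11 (a spindle kinesin, log2 fold change -1.18 ± 0.25), Mki67, Cenpf (a kinetochore protein, -1.13 ± 0.28), Top2a (the topoisomerase that untangles replicated DNA, -1.12 ± 0.28) and Hells (a chromatin remodeller of S phase, -0.92 ± 0.21). DESeq2 called 13 of the 30 and voom 9, all lower. The list median was -0.85, against 0 over all genes. All 30 had a negative log2 fold change, and in 21 of 30 the day 35 libraries all lay below day 21, which holds for 9.38% of all tested genes. The replication licensing genes Mcm2, Mcm3, Mcm5 and Mcm6 had log2 fold changes of -0.57, -0.86, -0.67 and -0.68 and did not pass the test.

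Summed over the list, the cell cycle genes made up 2536, 1987 and 1923 CPM at day 21 and 803, 1375 and 1084 CPM at day 35. Along the rod course the mean sums were 3677, 2733, 2191, 2148 and 1087 CPM for days 0, 5, 12, 21 and 35. The day 12 libraries were the most uneven of the 5 sets, from 1274 to 3089 CPM. The day 35 libraries kept 1 order: replicate 1 was the lowest of the 3 in 28 of the 30 genes and replicate 2 the highest in 24. Over all tested genes those shares were 36.9% and 31.6%. Mki67, Top2a and Cenpf were called in 1 of the 6 fits that leave out a library, the one without day 35 replicate 2, and Kif11 in 3. Without day 35 replicate 1 their log2 fold changes were -0.99, -0.94, -0.97 and -0.97 (adjusted p 0.164, 0.164, 0.15 and 0.097). Among called genes outside the list, 5 more with a part in division or in chromatin of dividing cells, picked after their values were seen, are Hmgb2 (log2 fold change -0.98 ± 0.19), Stmn1 (-0.81 ± 0.14), Aspm (a spindle pole protein, -1.11 ± 0.27), Dlgap5 (a spindle protein, -1.30 ± 0.31) and Lmnb1 (lamin B1, -0.93 ± 0.20). Cdc25c, the phosphatase that activates the mitotic kinase, was at 9.64, 5.94 and 4.63 CPM and then at 1.36, 3.23 and 2.39 CPM (log2 fold change -1.52 ± 0.37, adjusted p = 0.0328).

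**Figure D2:**
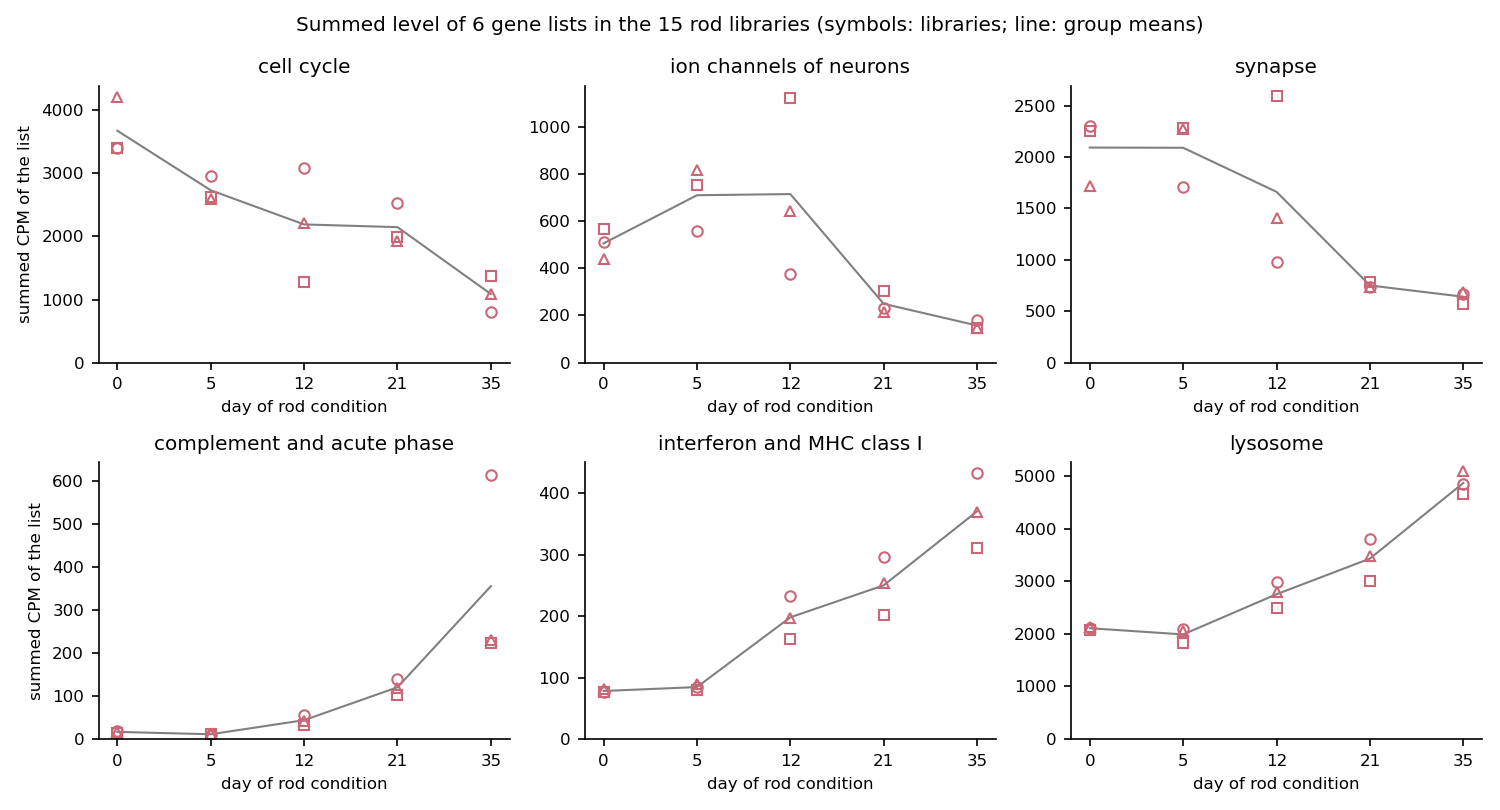
Summed level of 6 gene lists, in CPM on axes from 0, in the 15 rod libraries at days 0, 5, 12, 21 and 35. Open symbols are libraries (circle, square and triangle for replicates 1, 2 and 3) and lines join group means. The cell cycle sum runs from a mean of 3677 to 1087 CPM and the lysosome sum from 2107 to 4868 CPM, and the complement sum of day 35 replicate 1 (612 CPM) stands apart.

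The promoter windows of Kif11 and Top2a, 2 of the 5 fallen genes of the cell cycle list, are shown as examples. Many late cell cycle genes are known to carry paired CCAAT boxes and the cell cycle homology region TTTGAA, which bind NF-Y and the DREAM or MuvB complexes. Windows run from 250 bases before to 50 bases after the start site, are printed in the direction of transcription and come from RefSeq on GRCm38.p6. Capitals mark TTTGAA and CCAAT on either strand, so TTCAAA and ATTGG are their opposite-strand forms.
Kif11, chr19:37376132-37376431, + strand: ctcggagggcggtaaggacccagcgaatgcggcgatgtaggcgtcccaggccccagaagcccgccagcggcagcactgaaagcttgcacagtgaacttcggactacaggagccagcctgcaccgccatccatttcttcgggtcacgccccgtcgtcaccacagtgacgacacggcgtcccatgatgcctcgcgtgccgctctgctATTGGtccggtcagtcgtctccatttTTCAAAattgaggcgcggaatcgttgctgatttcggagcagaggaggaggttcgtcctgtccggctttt
Top2a, chr11:99024140-99024439, - strand: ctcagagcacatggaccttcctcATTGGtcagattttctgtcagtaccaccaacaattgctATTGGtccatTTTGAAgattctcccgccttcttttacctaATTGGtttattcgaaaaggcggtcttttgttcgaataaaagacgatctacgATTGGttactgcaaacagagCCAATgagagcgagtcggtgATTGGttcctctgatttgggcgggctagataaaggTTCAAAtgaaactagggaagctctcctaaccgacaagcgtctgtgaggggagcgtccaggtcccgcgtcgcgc
The Kif11 window holds 1 TTTGAA match, 19 bases before the start site, and 1 CCAAT match, and the Top2a window holds 2 and 6. Windows were found for 119 of the 159 fallen genes (147 windows, since some genes have several starts). TTTGAA lay in 25.2% of those 147 windows, in 37.0% of the 27 windows of the cell cycle list, and in 11.8% of the 14633 windows of tested genes. CCAAT lay in 46.3%, 77.8% and 37.4% of the same 3 sets. These are letter matches only.

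A few channel genes of neurons fell. Of 20 tested ion channel genes of neurons edgeR called 2 lower and none higher, DESeq2 4 lower and 1 higher, and voom none lower and 1 higher. The 2 edgeR calls were Cacna1b, a presynaptic calcium channel (7.17, 9.72 and 6.58 CPM, then 3.23, 2.26 and 2.77 CPM, log2 fold change -1.50 ± 0.33, adjusted p = 0.0209), and Gria1, an AMPA receptor subunit (31.3, 18.9 and 20 CPM, then 10.8, 14.1 and 10.1 CPM, -1.01 ± 0.23, adjusted p = 0.0277). Neither gene's groups overlapped, and leaving out a library kept the call in 2 and 3 of 6 fits. The list median was -1.04, and 12 of 20 genes were lower in all day 35 libraries (9.38% of all tested genes were). The T-type calcium channel Cacna1i was at 5.94, 13.1 and 10.5 CPM and then at 2.29, 2.18 and 1.68 CPM (log2 fold change -2.27 ± 0.54, adjusted p = 0.0307). Drd1, a dopamine receptor, and Nalcn, the sodium leak channel, fell by 2.27 ± 0.54 and 1.79 ± 0.45 on the log2 scale (adjusted p = 0.0304 and 0.0428), 2 genes picked after their values were seen. Drd1 had 11, 5 and 9 counts in the day 35 libraries. Neurod4, a proneural factor of retinal neurons, was at 10.9, 28.5 and 16.6 CPM and then at 7.05, 4.2 and 4.97 CPM (log2 fold change -1.79 ± 0.47, adjusted p = 0.0482). Leaving out a library kept the calls of Cacna1i, Drd1, Nalcn and Neurod4 in 1, 1, 2 and 1 of 6 fits. None of 23 synapse genes was called by edgeR or voom, and 5 were called lower by DESeq2. Of the 23, 9 had an unadjusted p under 0.05 in edgeR (15.4% of all tested genes did). In 15 of them all day 35 libraries lay below day 21 (9.38% of all tested genes), and the list median was -0.71. Snap25, a vesicle fusion protein, was lower by log2 fold change -1.78 ± 0.66 without passing the test (adjusted p = 0.169), and Bsn, a scaffold of the active zone, had a value of -1.36 ± 0.49 (adjusted p = 0.157). Bipolar cell genes had a median of -1.35 over 14 genes, with none called by edgeR and 1 called higher by both DESeq2 and voom. Of the 14, 6 had an unadjusted p under 0.05 (15.4% of all tested genes). Their summed level did not go down (216, 223 and 212 CPM, then 262, 230.0 and 219.7 CPM). Neuropeptide genes had a median of 0.64 over 15 genes, with none called by edgeR or voom and 1 called higher by DESeq2. Of the 15, 3 were higher in every day 35 library (8.98% of all tested genes) and 4 had an unadjusted p under 0.05 (15.4%). The summed ion channel level was 231, 302 and 213 CPM at day 21 and 181, 145 and 145 CPM at day 35. At day 12 it had been uneven, at 377, 1123 and 643 CPM.

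The largest falls by the naming rule were those of the long noncoding RNA RP23-474J16.2 (5.86, 13.7 and 10.8 CPM, then 0.0849, 1.13 and 2.06 CPM, log2 fold change -3.16 ± 0.81, adjusted p = 0.0454), and Fstl4, a secreted follistatin-like protein (50.7, 157 and 103 CPM, then 11.4, 28.8 and 19.5 CPM, -2.38 ± 0.51, adjusted p = 0.0196). Both had day 21 replicate 1 as the lowest of its group. Neither overlapped with day 35, which the naming rule required. RP23-474J16.2 was called in none of the 6 fits that leave out a library (highest adjusted p 0.149) and Fstl4 in 3. The same order at day 21 was seen in Thsd7b (log2 fold change -2.28 ± 0.47), Efcc1 (-2.13 ± 0.51) and Tmc3 (a transmembrane channel-like protein, -1.91 ± 0.49). Rps6ka6 was at 11.6, 20.9 and 14 CPM and then at 4.41, 4.93 and 3.87 CPM (log2 fold change -1.82 ± 0.24, adjusted p = 0.000456). Single members of other lists that fell were Ugt8a, an enzyme of myelin galactolipids (-1.32 ± 0.32), Ccdc40, an assembly factor of motile cilia (-1.43 ± 0.28), and Jag2, a Notch ligand (-1.37 ± 0.34). By edgeR these were the only called members of their lists of 10, 13 and 15 tested genes, and leaving out a library kept the calls in 1, 3 and 1 of 6 fits. In the oligodendrocyte list, which holds Ugt8a, voom called 1 gene higher and none lower. The list medians were 0.01, -0.08 and -0.28.

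Of 23 polycomb and developmental regulators 3 fell. Sox4, a SoxC transcription factor of progenitors and young neurons, was at 141, 143 and 144 CPM at day 21 and at 94.1, 93.3 and 97.1 CPM at day 35 (log2 fold change -0.59 ± 0.11, adjusted p = 0.00484). Its relative Sox11 was at 106, 88.7 and 110.5 CPM and then at 47.8, 60.5 and 68 CPM (-0.79 ± 0.20, adjusted p = 0.0426). Ezh2, the polycomb methyltransferase of histone H3 lysine 27, was at 90.2, 66.7 and 66.1 CPM and then at 43.5, 48.1 and 48.3 CPM (-0.67 ± 0.13, adjusted p = 0.0111). In none of the 3 did the groups overlap. They were the 3 edgeR calls of that list, with none risen and a list median of -0.27. Of the 23, 8 were lower in every day 35 library (9.38% of all tested genes were). The 20 retinal progenitor markers had a median of 0.04, with none called by edgeR, DESeq2 or voom and 0 at an unadjusted p under 0.05. Without 1 library, Sox4 kept its call in all 6 fits, Ezh2 in 4 and Sox11 in none, the highest adjusted p for Sox11 being 0.164 without day 35 replicate 1.

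**Figure D3:**
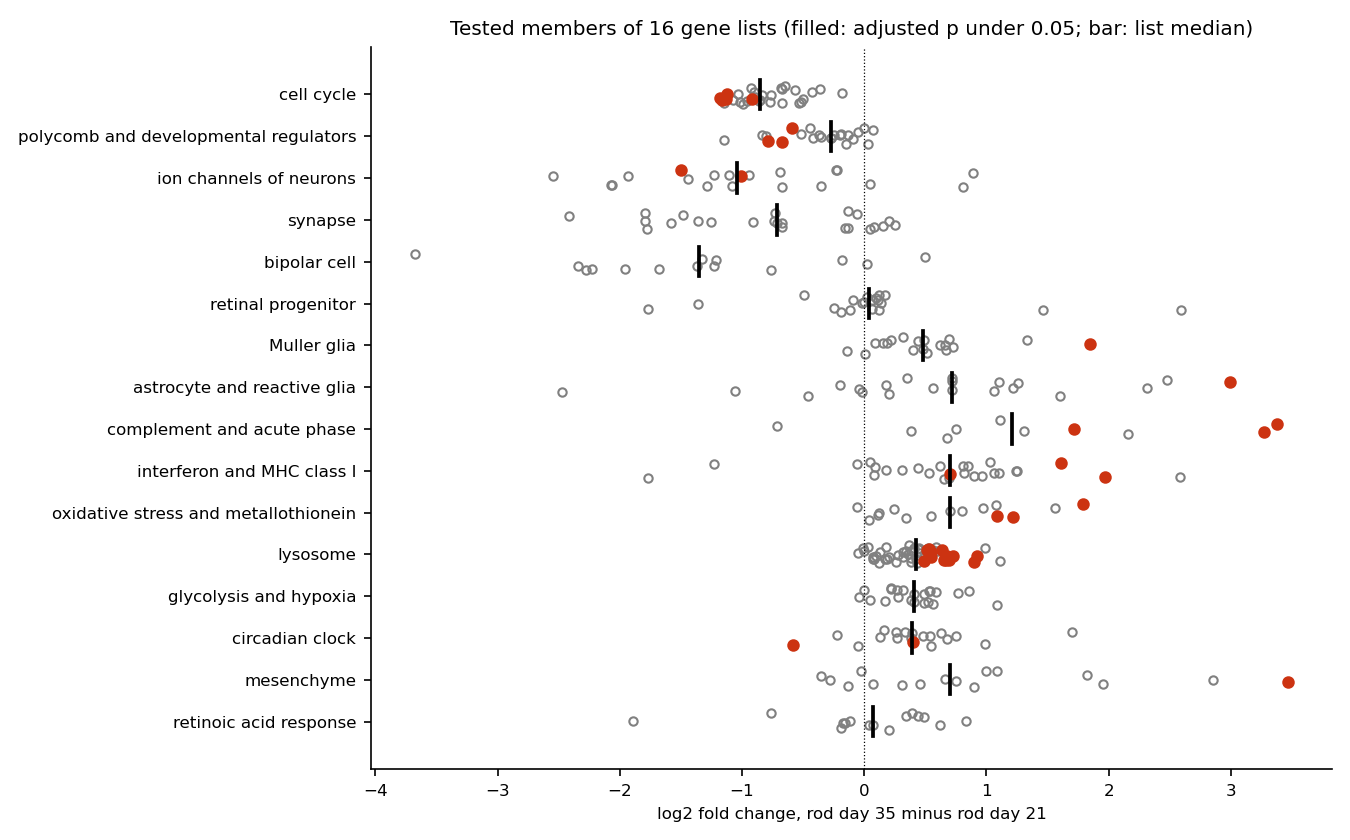
Log2 fold change of day 35 minus day 21 for the tested members of 16 gene lists, 1 point per gene, filled where the adjusted p was under 0.05, with a bar at the list median. The cell cycle list lies wholly to the left of 0 (median -0.85) and the lysosome list almost wholly to the right (median 0.42), while the synapse and ion channel lists have low medians (-0.71 and -1.04) with 0 and 2 filled points.

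Of 10 tested complement and acute phase genes 3 rose. C3, the central complement component, was at 14.7, 5.48 and 8.86 CPM at day 21 and at 204, 59.3 and 40.3 CPM at day 35 (log2 fold change 3.38 ± 0.54, adjusted p = 0.00176). C4b, another complement component, was at 6.25, 7.02 and 9.84 CPM and then at 171, 24.8 and 28.1 CPM (3.27 ± 0.66, adjusted p = 0.0209). C4b has a near-identical neighbour, C4a, so the split of reads between the copies is uncertain. Serping1, the inhibitor of the first complement protease, was at 3.24, 1.77 and 2.02 CPM and then at 16.3, 4.69 and 2.52 CPM (1.72 ± 0.43, adjusted p = 0.0402), with overlapping groups. None of the list fell, 6 were higher in every day 35 library (8.98% of all tested genes were), and the list median was 1.21. In all 3 called genes day 35 replicate 1 was the highest. Without it, C3 remained called (log2 fold change 2.36), whereas C4b (1.77, adjusted p = 0.129) and Serping1 (0.61, adjusted p = 0.418) did not. Summed over the list, the levels were 140.5, 103 and 118 CPM and then 612, 224 and 229 CPM, from a mean of 43.9 CPM at day 12.

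Lcn2, an iron-siderophore carrier of reactive astrocytes, was at 10.3, 5.32 and 3.71 CPM and then at 81.2, 39.1 and 33.3 CPM (log2 fold change 2.99 ± 0.47, adjusted p = 0.00274). Chil1, a secreted chitinase-like protein of reactive glia, was at 3.39, 3.09 and 4.23 CPM and then at 29.3, 12.2 and 14.1 CPM (2.37 ± 0.38, adjusted p = 0.00225). Both were separate from day 21 in all libraries, which the naming rule required of Chil1. Lcn2 was the only one of 21 astrocyte and reactive glia genes that edgeR called, where DESeq2 called 4 and voom 6, all higher. Gfap, the intermediate filament of reactive glia, was at 129, 61.2 and 126 CPM and then at 231, 149.9 and 141 CPM (0.72 ± 0.43, adjusted p = 0.448), and the list median was 0.72. Among 19 Muller glia genes edgeR called Apoe, a lipid carrier, alone, and DESeq2 and voom each called 2, all higher. Apoe was at 341, 247 and 331 CPM, then 1974, 610.4 and 717 CPM (1.85 ± 0.37, adjusted p = 0.0122, and 1.12 with adjusted p = 0.109 without day 35 replicate 1). The Muller glia list had a median of 0.48 with 18 of 19 positive. In 14 of those 19 genes day 35 replicate 1 was the highest of the day 35 libraries and in 14 replicate 2 was the lowest, the reverse of their order in the cell cycle genes. Enpp2, the lysophospholipase autotaxin, picked after its values were seen, was at 80, 118 and 166 CPM and then at 570.4, 266 and 416 CPM (1.78 ± 0.37, adjusted p = 0.0175).

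Of 28 interferon and MHC class I genes 3 rose. Ifit3, an interferon-induced antiviral gene, was at 1.16, 1.31 and 1.04 CPM and then at 6.62, 2.67 and 4.58 CPM (log2 fold change 1.97 ± 0.42, adjusted p = 0.018). It has a close copy, Ifit3b, so its count is uncertain. Xaf1, another interferon-induced gene, was at 2.39, 1.39 and 1.82 CPM and then at 7.73, 3.72 and 5.74 CPM (1.61 ± 0.42, adjusted p = 0.0489). Tapbp, which loads peptides onto MHC class I, was at 44.3, 27.6 and 32.8 CPM and then at 66.6, 50.2 and 53.9 CPM (0.70 ± 0.16, adjusted p = 0.0251). In none of the 3 did the groups overlap. The list had no fallen gene, 25 positive, 10 higher in every day 35 library (8.98% of all tested genes were), and a median of 0.70. B2m, the light chain of MHC class I, was at 62.1, 38 and 54.3 CPM and then at 74.7, 76.1 and 90.9 CPM (0.65 ± 0.19, adjusted p = 0.0793). Leaving out a library kept the call of Ifit3 in 3 of 6 fits, of Tapbp in 2 and of Xaf1 in 1, with highest adjusted p of 0.0856, 0.137 and 0.182. In 21 of 27 of these genes day 35 replicate 1 was the highest day 35 library. Ifngr1 was at 35.2, 34.6 and 32 CPM and then at 59.8, 68.7 and 65.4 CPM (0.93 ± 0.16, adjusted p = 0.00339).

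The Ifit3 window is shown because it carries 2 copies of the core of the interferon-stimulated response element, the known binding site of interferon-activated STAT and IRF factors. Capitals mark the matches, here in the opposite-strand form.
Ifit3, chr19:34583279-34583578, + strand: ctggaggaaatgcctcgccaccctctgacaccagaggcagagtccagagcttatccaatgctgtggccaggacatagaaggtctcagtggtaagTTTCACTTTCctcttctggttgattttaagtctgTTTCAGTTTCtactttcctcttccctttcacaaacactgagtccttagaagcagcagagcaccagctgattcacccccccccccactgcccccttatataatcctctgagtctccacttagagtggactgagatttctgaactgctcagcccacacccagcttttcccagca
This motif lay in 30.8% of the 26 windows of the interferon list, 2.92% of windows of tested genes and 4.76% of the 126 windows of the risen genes.

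Of 15 oxidative stress and metallothionein genes 3 rose and none fell, 10 were higher in every day 35 library (8.98% of all tested genes were) and the median was 0.70. Mt1, a zinc and copper buffering metallothionein, was at 1.93, 1.85 and 1.56 CPM and then at 9.85, 4.28 and 4.45 CPM (log2 fold change 1.79 ± 0.36, adjusted p = 0.0124). Gpx3, a secreted glutathione peroxidase, was at 71.8, 35.8 and 75.2 CPM and then at 106, 182 and 137 CPM (1.22 ± 0.30, adjusted p = 0.0362). Gstm1, a glutathione transferase, was at 118, 75.9 and 92.4 CPM and then at 207, 160.3 and 243 CPM (1.09 ± 0.25, adjusted p = 0.0243). All 3 were separate from day 21, and leaving out a library kept their calls in 3, 1 and 2 of 6 fits. Hmox1, which breaks down haem, had a log2 fold change of 0.80 (adjusted p = 0.137). Outside the list, Fth1, the ferritin heavy chain, was at 139, 133 and 144 CPM and then at 287, 255 and 341 CPM (1.08 ± 0.17, adjusted p = 0.00172). Fth1 has processed pseudogenes, so reads may be split among copies. Trf, the iron carrier transferrin, was at 2.85, 2.85 and 1.89 CPM and then at 22.1, 7.27 and 10.5 CPM (2.39 ± 0.61, adjusted p = 0.0449), and was called in 1 of the 6 fits that leave out a library. Among cholesterol genes, Insig1, a sterol-regulated brake on synthesis, was the only edgeR call (50.9 ± 2.33 CPM at day 21 and 73.0 ± 3.44 CPM at day 35, SD, n = 3; log2 fold change 0.52 ± 0.12, adjusted p = 0.0277), and the median of its 22 genes was 0.10. Insig1 was called in none of the 6 fits that leave out a library, and of the list DESeq2 called 2 higher and 1 lower and voom 2 higher. Thrsp, a regulator of lipogenesis, was at 6.63, 5.09 and 6.91 CPM and then at 42.3, 18.3 and 21.2 CPM (2.13 ± 0.39, adjusted p = 0.00645).

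In a list of 53 lysosomal genes, drawn up after these values had been seen and therefore descriptive, 14 rose and none fell. Of the 53, 51 had a positive log2 fold change, 32 were higher in every day 35 library (8.98% of all tested genes were), and the median was 0.42. Ctsd, the main aspartic protease of lysosomes, was at 612, 428 and 472 CPM and then at 992, 842 and 982 CPM (log2 fold change 0.90 ± 0.21, adjusted p = 0.0277). Gaa, the glucosidase that degrades lysosomal glycogen, was at 82.1, 84.2 and 78 CPM and then at 143, 139 and 114 CPM (0.69 ± 0.11, adjusted p = 0.00225). Both were clear of day 21. The other called members were the hydrolases Ctsa, Ctsb, Hexa, Idua, Arsa, Man2b2 and Scpep1, the membrane proteins Lamp2, Scarb2 and Tpcn1, and the lipid-presenting cofactors Psap and Gm2a, with log2 fold changes from 0.49 (Psap) to 0.92 (Idua). DESeq2 called 22 of the 53 and voom 28, all higher. Gaa kept its call without each of the 6 libraries, and Ctsd in 2 of those 6 fits (log2 fold change 0.79 to 1.05, highest adjusted p 0.133). The summed level was 3809, 2995 and 3486 CPM at day 21 and 4852, 4659.8 and 5093 CPM at day 35.

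The Gaa and Ctsd windows are shown because the E-box CACGTG is the core of the element bound by TFEB and its relatives in lysosomal genes. Capitals mark CACGTG, which reads the same on both strands.
Gaa, chr11:119267713-119268012, + strand: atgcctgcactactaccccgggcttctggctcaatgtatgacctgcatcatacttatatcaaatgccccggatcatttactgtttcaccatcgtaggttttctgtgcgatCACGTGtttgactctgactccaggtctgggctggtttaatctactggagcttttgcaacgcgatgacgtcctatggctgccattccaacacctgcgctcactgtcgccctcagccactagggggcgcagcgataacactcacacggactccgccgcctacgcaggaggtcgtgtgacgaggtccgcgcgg
Ctsd, chr7:142387778-142388077, - strand: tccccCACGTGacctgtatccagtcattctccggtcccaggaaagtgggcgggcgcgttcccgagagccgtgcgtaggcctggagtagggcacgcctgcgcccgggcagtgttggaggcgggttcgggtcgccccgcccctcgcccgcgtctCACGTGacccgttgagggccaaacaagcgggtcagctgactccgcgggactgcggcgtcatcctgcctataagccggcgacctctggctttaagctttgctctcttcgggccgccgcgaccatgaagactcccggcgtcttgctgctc
The Gaa window holds 1 match and the Ctsd window 2. Of the 49 windows of the lysosome list 28.6% held CACGTG, against 9.36% of the windows of tested genes and 12.7% of the windows of risen genes. Tfeb itself had a log2 fold change of 0.45 (adjusted p = 0.354).

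Phagocyte markers were given beside the complement, Apoe and lysosome results because microglia express these genes. The summed level of 21 microglia and macrophage markers was 27.8, 29.9 and 31.3 CPM at day 21 and 45.6, 45.8 and 42.3 CPM at day 35, with none of 19 tested markers called by edgeR, 1 at an unadjusted p under 0.05 and 1 called higher by both DESeq2 and voom. Of the 19, 9 had a positive and 10 a negative log2 fold change (from -1.79 to 3.99, median -0.11). Picked from the list, the markers Cx3cr1, Csf1r, Trem2 and Tyrobp were at or under 0.847, 0.771, 0.154 and 0.195 CPM in every one of the 6 libraries. Other members of the list made up most of its summed level. The part of phagocytes in these results was not tested.

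Some of the largest rises rested on 1 library. In 16 of the 121 risen genes the highest day 35 library was at least 3 times the next, replicate 2 in 12 of them and replicate 1 in 4 (C3, C4b, Serping1 and the neuropeptide precursor Npvf). These genes were picked out after their values were seen. Mgp, the matrix Gla protein that inhibits calcification, was at 1.31, 8.41 and 1.30 CPM and then at 16.9, 162 and 26.6 CPM (log2 fold change 4.24 ± 0.98, adjusted p = 0.0307). Fmod, a collagen-binding proteoglycan, was at 9.64, 11.1 and 5.99 CPM and then at 57.1, 193 and 46.4 CPM (3.47 ± 0.53, adjusted p = 0.00176). Inmt, a methyltransferase, was at 0.386, 2.62 and 0.586 CPM and then at 6.03, 50.7 and 8.38 CPM (4.18 ± 0.96, adjusted p = 0.0458). In these 3 the other day 35 libraries also lay above day 21, but Inmt was called in none of the 6 fits that leave out a library. In Angptl7 (1.70, 5.17 and 0.456 CPM, then 1.02, 176 and 7.67 CPM), Fmo2 (0, 3.32 and 1.30 CPM, then 1.36, 198 and 9.22 CPM), Phex, Col8a2, Kcnn2, Sncaip, Cilp and Fam163a they did not all do so. Without day 35 replicate 2, Fmod kept its call (log2 fold change 2.54), while Mgp (2.58, adjusted p = 0.147), Inmt (2.59, adjusted p = 0.15), Papss2, an enzyme of sulfate donor synthesis (1.11, adjusted p = 0.262), Angptl7 (0.86, adjusted p = 0.68) and Fmo2 (1.78, adjusted p = 0.423) were no longer called. Fam129a, a stress-linked protein, was at 1.16, 3.09 and 2.61 CPM and then at 17, 33.3 and 7.09 CPM (3.05 ± 0.66, adjusted p = 0.0204).

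Markers of mesenchyme moved with that library. Their summed level was 521, 694 and 619 CPM at day 21 and 604, 941 and 645 CPM at day 35, and in 14 of 16 tested markers day 35 replicate 2 was the highest of the day 35 libraries. Meox1, a mesenchymal homeobox gene, was at 5.17, 33.5 and 5.54 CPM and then at 37.4, 111 and 22 CPM (log2 fold change 1.95 ± 0.67, adjusted p = 0.138), and Dcn, a matrix proteoglycan, at 15.7, 69 and 42.9 CPM and then at 23.2, 133 and 58 CPM (0.75 ± 0.68, adjusted p = 0.664). In both genes replicate 2 was the highest at each day. Fmod was the only mesenchyme marker that edgeR called, and voom called 2 higher and 1 lower. The part of mesenchymal cells in the replicate 2 values was not tested.

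**Figure D4:**
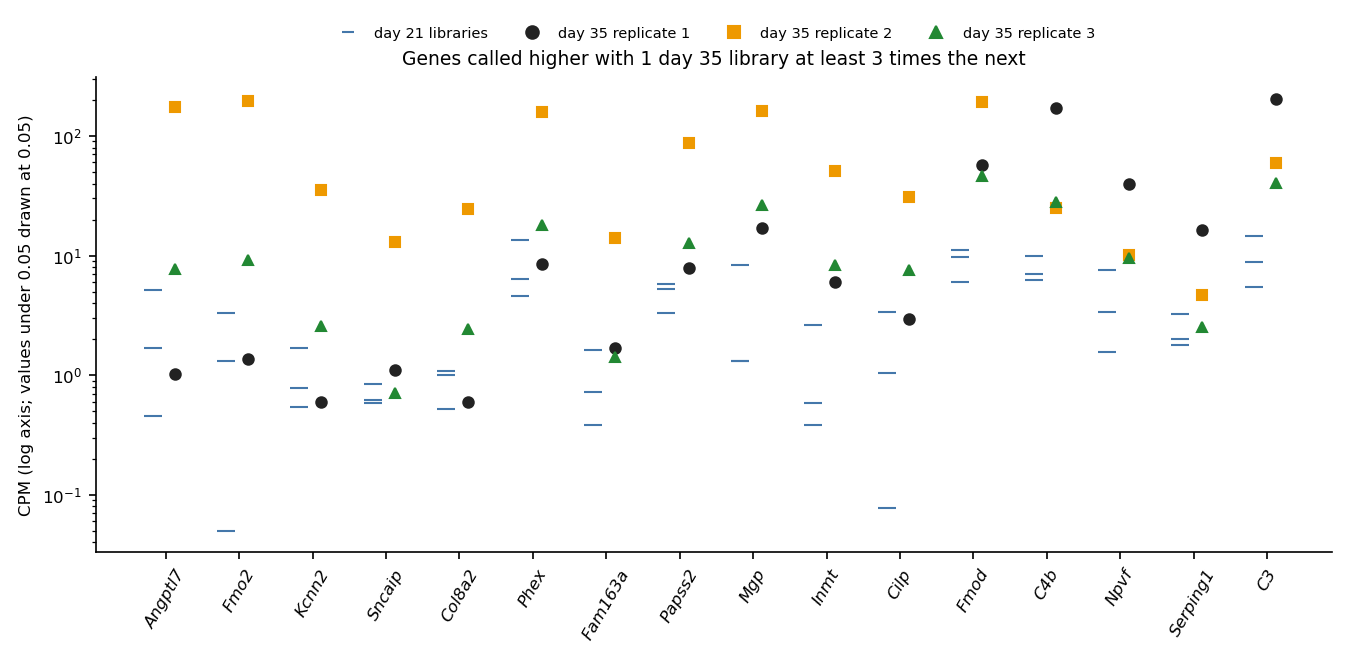
Levels of the 16 risen genes in which the highest day 35 library was at least 3 times the next, in CPM on a log axis, where values under 0.05 are drawn at 0.05, with blue dashes for the 3 day 21 libraries and symbols for day 35 replicates 1, 2 and 3. Replicate 2 (orange squares) stands above in 12 genes, from Angptl7 to Fmod, and replicate 1 (black circles) in 4.

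The circadian clock was looked at after Arntl appeared among the falls. Arntl, the partner of CLOCK and the positive arm of the clock, was at 49.3, 54.3 and 47.1 CPM and then at 35.1, 34.6 and 31.3 CPM (log2 fold change -0.58 ± 0.09, adjusted p = 0.00172). Nr1d2, a repressor of Arntl, was at 77.5, 74.9 and 72.8 CPM and then at 101, 93.1 and 104 CPM (0.40 ± 0.10, adjusted p = 0.0426). Neither overlapped between days. They were the 2 edgeR calls among 19 clock genes, where DESeq2 called 3 higher and 1 lower and voom 5 higher and 1 lower. Of the 19, 16 had a positive log2 fold change and 9 were higher in every day 35 library (8.98% of all tested genes were). The output gene Dbp and the repressor Nr1d1 had log2 fold changes of 0.68 and 0.48 (adjusted p 0.0747 and 0.087). Nr1d2 was called in 1 of the 6 fits that leave out a library, and Arntl in all 6.

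No retinoic acid or taurine gene passed the edgeR test. Cyp26a1, which degrades retinoic acid, was at 138, 162 and 129.6 CPM and then at 226, 154 and 183 CPM (log2 fold change 0.39 ± 0.35, adjusted p = 0.648). Cyp26b1, with the same activity, was at 155, 419.9 and 388 CPM and then at 249, 467 and 272 CPM (0.04 ± 0.51, adjusted p = 0.991), and Rarb, a receptor that retinoic acid induces, at 126, 135 and 126 CPM and then at 123, 122 and 113 CPM (-0.12 ± 0.20, adjusted p = 0.844). Of the 15 tested genes edgeR and DESeq2 called none and voom 1, 1 had an unadjusted p under 0.05 in edgeR, and the list median was 0.07. Slc6a6, the taurine transporter, ranged from 429 to 808 CPM over the 6 libraries (0.18 ± 0.21, adjusted p = 0.764). Its list of 8 taurine and glycine genes had a median of -0.37, with 4 at an unadjusted p under 0.05 (15.4% of all tested genes), 2 higher and 2 lower in every day 35 library, and none called by the 3 tools. Sox15 ranged from 0.0771 to 1.24 CPM, and the BMP response list had a median of -0.22 over 15 genes with none called by the 3 tools and 1 at an unadjusted p under 0.05. For these genes the test did not show a difference, which does not show that they were equal. Glycolysis genes had a median of 0.41 over 22 genes, with none called by edgeR or DESeq2 and 1 by voom. Of the 22, 10 were higher in every day 35 library (8.98% of all tested genes) and 8 had an unadjusted p under 0.05 (15.4%). In all, 13 of 52 lists had a called gene, where 1.54% of all tested genes were called. How many lists would hold a call at that share was not tested, so this count is no result about the lists.

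The same interval in the cone cultures gives a comparison with no shared libraries. Of the 280 called genes, 265 (94.6%) had the same sign of log2 fold change in the cone cultures, against 65.1% of all tested genes. Across all tested genes the 2 sets of log2 fold changes had Pearson's r of 0.32 and Spearman's rho of 0.365, where genes are not independent replicates. The cell cycle list had a median of -0.36 in the cone interval and -0.85 in the rod interval, the lysosome list 0.31 and 0.42, the complement list 0.85 and 1.21, and the interferon list 1.06 and 0.70. The difference between the intervals was tested gene by gene as an interaction. On simulated counts this test recovered 32% of 2-fold and 64% of 4-fold changes, set in genes with a rod day 21 mean of at least 1 CPM. In the data 1 of 18150 genes (0.00551%) passed, with 965 (5.32%) at an unadjusted p under 0.05. That gene was Kit, the receptor for stem cell factor. It was at 37.3, 41.6 and 50.6 CPM in the rod cultures at day 21 and at 42.6, 51.3 and 34.6 CPM at day 35 (log2 fold change -0.01 ± 0.21, adjusted p = 0.993). In the cone cultures it went from 27.5 to 43.6 CPM at day 21 down to 5.72 to 10.4 CPM at day 35 (-2.13 ± 0.22, adjusted p = 1.02e-05). The difference of the 2 changes was 2.12 ± 0.30 on the log2 scale (adjusted p = 0.00337). It was not called when genes were filtered and fitted on the 12 libraries alone (16597 genes, 2.14, adjusted p = 0.3).

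**Figure D5:**
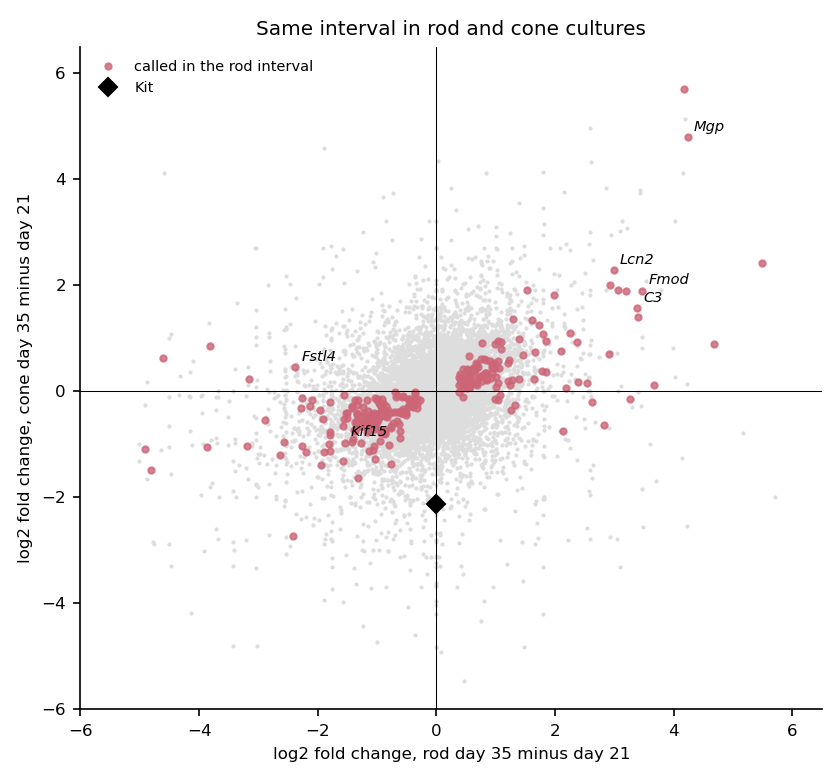
Log2 fold change from day 21 to day 35 in the rod cultures (x axis) and the cone cultures (y axis), 1 point per tested gene, with the 280 genes called in the rod interval in red and Kit as a black diamond. 2 genes lie outside the axes. Most red points (265 of 280) have the same sign on both axes, and Kit lies on the vertical zero line at -2.13.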

How the data were processed

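RNA from 33 libraries in 11 groups of 3 was sequenced. Per the labels, RNA and libraries were made with Takara low-input kits. The submitters' processing notes name HISAT2, StringTie, HTSeq and GRCm38, without versions. The deposited count tables hold unnormalised reads per gene for 47729 genes; 5 summary lines per file were dropped. The deposited abundance tables hold TPM, FPKM and coverage, per the file headers. Counts were the basis of all results. In the 6 libraries, 27.1 to 34.6% of genes with at least 50 counts were listed at TPM 0 by the authors (Spearman rho 0.38 to 0.46 between TPM and counts), so TPM entered only 1 alternative. FPKM and coverage were left unused. Whether counting used strand is not given in the sources used here, so overlapping genes on opposite strands cannot be told apart. Of the genes, 47310 were found in GENCODE M21, which gave gene types, 47286 of them overlapping it in position. Symbols are the gene names in the deposited abundance tables.

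The filterByExpr rule (minimum count 10) kept 18150 of the 32488 genes with any count. They were scaled by TMM, and fitted in 1 quasi-likelihood model of all 33 libraries (edgeR 4.0.16, limma 3.58.1, DESeq2 1.42.0, R 4.3.3). Contrasts were rod day 35 minus day 21 and its difference from the cone interval, with Benjamini-Hochberg adjustment over all tested genes and a threshold of 0.05. On simulated counts (17877 genes passing the filter) the first contrast recovered 61% of genes changed 2-fold and 90% of genes changed 4-fold, with 7 false calls, and made 0 calls where nothing was changed. The interaction recovered 32% and 64%, with 3 false calls. The changed genes had a rod day 21 mean of at least 1 CPM, so recovery was not measured for lower genes. The simulated spread was that over all groups (coefficient of variation between libraries 0.213). It was 0.214 within rod day 21 and 0.243 within rod day 35. Each simulated gene varied independently, so shifts that many genes share in 1 library, as seen at day 35, were not part of the simulation. Genes were named by rule: the 12 largest called rises and falls with a group mean of at least 5 CPM and no overlap, leaving out unnamed gene models, up to 4 called genes per list, 19 always-named genes and up to 4 interaction genes each way. A few of these genes are not reported here. Genes named outside it were chosen after their values were seen. The members and lists were chosen with earlier results of these data known; the lysosome and clock lists and the motifs were added after the values were seen. Alternatives were other scalings, filters, tools, units and sample sets, and leaving out each library. Motifs were searched in RefSeq GRCm38.p6 windows of 300 bases on both strands, with windows found for 11416 of the tested genes' symbols.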

Additional observations from a re-analysis of the deposited data

Results flagged for a closer look

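Kit changed differently in the rod and the cone cultures between day 21 and day 35. The log2 fold change was -0.01 in the rod cultures and -2.13 in the cone cultures, and the difference of 2.12 ± 0.30 passed the edgeR interaction test (adjusted p = 0.00337). Leaving out each of the 12 libraries in turn gave 1.89 to 2.30, called each time, with a highest adjusted p of 0.028. Filtered and fitted on the 12 libraries alone, which changes the spread and the genes tested (16597), it was 2.14 with an adjusted p of 0.3.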

How the results depend on the processing

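The main model called 280 genes. With the 6 compared libraries alone 3 genes were called (1 of them among the 280). With these and a replicate block 22 were called (15 among the 280), and with the rod libraries only 64 (59 among the 280). Voom with quality weights called 875 (65.8% higher, against 43.2%), of which 236 were among the 280. DESeq2 called 748 (270 among the 280) and limma on log2(TPM + 1) 15 (4 among the 280). Leaving out a library gave 59 to 314. Correlations of same-numbered deviations between the days were -0.0779, 0.125 and 0.102, and those of differently numbered ones ran from -0.299 to 0.211. With 3 libraries per day these values cannot settle whether replicate numbers pair the samples. A block over all libraries gave 282 calls, 253 of them shared. For the interaction, 2 genes were called without a filter, 0 with the compared libraries alone or with these and a block (790 and 774 at an unadjusted p under 0.05), 20 by voom, 3 by DESeq2 and 1 to 2 without a library; TPM called 1, another gene than Kit. Signs changed on the TPM scale for Papss2 (-0.21), Thrsp (-0.78), Ugt8a (0.04), Ifit3 (-0.15), Tapbp (-0.79), Crx (0.20), Pax6 (-0.23), Cyp26a1 (-0.03), Cyp26b1 (-0.55), Slc6a6 (-0.50), Kit (0.06), Fam163a (-0.08), Cilp (-0.06), Ctsa (-0.42), Ctsb (-0.43), Scarb2 (-0.01), Idua (-0.17), Arsa (-0.46), Itm2b (-0.15) and Nalcn (0.18). They changed by voom for Rcvrn (-0.12), Pax6 (-0.04) and Cyp26b1 (-0.15). Leaving out a library moved Otx2 from -0.13 to 0.32, Rcvrn from -0.16 to 0.32, Pax6 from -0.08 to 0.15, Cyp26b1 from -0.31 to 0.28, Slc6a6 from -0.03 to 0.38, Sox15 from -0.77 to 1.02 and Kit from -0.17 to 0.12. The cause was not tested. Of 99 named genes, 13 were listed at TPM 0 in all 6 libraries. Genes near 3 counts per library cannot show a fold change at this depth.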
